A study of Homo sapiens with 4 samples.

Results

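BRD8 regions called in SW480 colorectal cancer cells with no HCT116 counterpart nearby, and lying inside genes away from their ends, numbered 2471. They were chosen from the peak lists themselves. A region entered the set when its summit fell between the ends of a RefSeq gene on chromosomes 1 to 22 or X, more than 1 kb from every gene end. It also had to have no HCT116 region within 5 kb. Chromosome 7 from 76 to 96 Mb and a stretch of 5 Mb on chromosome 8 that ends at 130 Mb were left out. The set made up 19.2% of the 12874 SW480 peaks (95% Wilson interval 18.5 to 19.9) and 52.5% of the 4705 SW480 peaks inside genes (51.1 to 53.9). Of the other SW480 peaks inside genes, 1477 overlapped an HCT116 region and 757 lay within 5 kb of one without overlap. The same rule applied to the 22303 HCT116 peaks gave 5210 regions seen in HCT116 alone, 62.1% of the HCT116 peaks inside genes.

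The study mapped BRD8 by chromatin immunoprecipitation and sequencing (ChIP-seq) in a pair of established human lines from colorectal cancer, HCT116 and SW480, neither carrying an added allele or treatment per the labels. Each line had 1 BRD8 library and 1 input library. HCT116 was grown in McCoy's 5A Modified Medium and SW480 in Leibovitz's L-15 Medium, both with 10% fetal bovine serum and antibiotics, so line and medium cannot be told apart. All cells were fixed for 10 minutes in 1% formaldehyde, and chromatin was cut with micrococcal nuclease. The polyclonal BRD8 antibody was used at 2 µg, and each library was built from 1 ng of DNA. With 1 ChIP library per line, no difference below has a replicate check, and the intervals cover counting error only. A region missing from the HCT116 list was not called there, which does not show that BRD8 was absent.

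BRD8 is a bromodomain subunit of TIP60/NuA4, the complex built around the acetyltransferase KAT5 that acetylates histones H4 and H2A and exchanges H2A.Z. The complex is known mostly from gene starts, where acetylated nucleosomes flank the transcription start site. Sites inside a gene body can be starts of shorter transcripts, enhancers of the host gene or of a neighbour, or stretches of open chromatin in transcribed sequence, and a peak list does not separate these kinds. SW480 was derived from a primary colon adenocarcinoma and HCT116 from a colon carcinoma with mismatch repair deficiency.

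The clearest way to see what kind of DNA some of these regions cover is at annotated starts of shorter transcripts. RefSeq gives 5227 transcript starts in 3590 genes that lie more than 1 kb from every gene end, called internal starts here. The 6 windows below hold the 250 bases upstream of internal starts (RefSeq, GRCh38.p14), each written 5′ to 3′ on its gene's strand. They belong to the 6 genes whose regions had the highest −log10 q among those overlapping such a window with a summit within 1 kb of the start, and they were chosen after the values were seen. Capitals mark matches to the motifs spelled out further on.
SMARCA2, chr9:2157412-2157661, plus strand: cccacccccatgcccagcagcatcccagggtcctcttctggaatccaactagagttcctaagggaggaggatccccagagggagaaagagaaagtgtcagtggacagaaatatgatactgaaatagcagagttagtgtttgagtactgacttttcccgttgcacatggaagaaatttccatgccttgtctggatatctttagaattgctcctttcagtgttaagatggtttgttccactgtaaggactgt
FKBP11, chr12:48924989-48925238, minus strand: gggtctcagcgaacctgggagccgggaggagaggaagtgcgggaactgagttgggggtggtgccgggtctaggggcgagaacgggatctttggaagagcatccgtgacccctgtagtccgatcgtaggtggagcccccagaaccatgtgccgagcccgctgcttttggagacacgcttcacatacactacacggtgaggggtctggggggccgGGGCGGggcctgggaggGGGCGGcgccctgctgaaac
PACSIN2, chr22:42959900-42960149, minus strand: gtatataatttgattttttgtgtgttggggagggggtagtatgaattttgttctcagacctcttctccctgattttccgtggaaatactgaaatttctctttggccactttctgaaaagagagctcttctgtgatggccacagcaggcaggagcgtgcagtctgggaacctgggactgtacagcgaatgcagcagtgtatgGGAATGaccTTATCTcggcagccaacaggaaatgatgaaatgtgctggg
SRPK2, chr7:105269053-105269302, minus strand: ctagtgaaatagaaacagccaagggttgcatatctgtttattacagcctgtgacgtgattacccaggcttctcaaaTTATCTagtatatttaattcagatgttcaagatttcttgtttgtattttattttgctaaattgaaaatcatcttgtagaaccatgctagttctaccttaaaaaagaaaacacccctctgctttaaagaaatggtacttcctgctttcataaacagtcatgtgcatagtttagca
CYTH1, chr17:78717036-78717285, minus strand: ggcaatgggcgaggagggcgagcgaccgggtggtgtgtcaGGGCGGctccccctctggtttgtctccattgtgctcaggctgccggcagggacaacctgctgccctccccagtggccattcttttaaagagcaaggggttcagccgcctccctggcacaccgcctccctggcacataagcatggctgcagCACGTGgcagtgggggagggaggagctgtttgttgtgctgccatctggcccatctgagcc
PRR5L, chr11:36375735-36375984, plus strand: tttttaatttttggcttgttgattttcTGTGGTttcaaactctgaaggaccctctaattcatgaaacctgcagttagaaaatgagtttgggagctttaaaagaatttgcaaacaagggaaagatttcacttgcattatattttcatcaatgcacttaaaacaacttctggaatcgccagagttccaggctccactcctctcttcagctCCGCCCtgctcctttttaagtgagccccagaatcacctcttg

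These windows differed in composition. The FKBP11 window had 66% G and C with 17 CpG dinucleotides and 2 GC boxes, and the CYTH1 window had 64.4% with 9 CpG, a GC box and an E-box. The SMARCA2, PACSIN2 and PRR5L windows had 46%, 46.4% and 40% G and C with 1, 4 and 2 CpG. The SRPK2 window had 33.6% with 1 CpG. SMARCA2, whose window held none of the 11 motifs, encodes an ATPase of the SWI/SNF remodelling complex, and its internal start gives a short form that keeps the bromodomain. Its region reached fold 6.95 with 60 fragments at the summit, 269 bp downstream of the start. FKBP11, a peptidyl-prolyl isomerase of the endoplasmic reticulum, had fold 3.73 with 64 fragments 76 bp downstream. PACSIN2, a membrane-bending protein of endocytosis, had fold 5.70 with 31 fragments 163 bp upstream. The remaining summits of the 6 lay 141 bp upstream of the start in SRPK2, a kinase of splicing factors, 164 bp upstream in CYTH1, an exchange factor for ARF GTPases, and 110 bp downstream in PRR5L, a partner of the mTORC2 complex. None of the 6 had an HCT116 region within 5 kb, as the rule required.

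The regions as a set had usual enrichment but few fragments. The fold, as the authors deposited it, divides the ChIP signal at the summit by the caller's local background after adding 1 to both, and its median was 3.34 (range 1.82 to 10.03). SW480 peaks inside genes that overlapped HCT116 had the same median of 3.34, and SW480 peaks at gene ends had 3.25. The median pileup, the number of ChIP fragments over the summit as recovered from the fold and p-value, was 20 (quartiles 17 and 24), beside 29 in the overlapping peaks and 36 at gene ends. These fragment counts set the precision of a single region, so its fold is loosely known. The median −log10 q was 3.41 beside 4.79 and 5.83, and the median width was 321 bp beside 466 and 495 bp. Regions with −log10 q of at least 10 numbered 104, 4.21% of the set, beside 16.9% of the overlapping peaks.

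The background under these regions was low. MACS2 lets the local background fall no lower than a genome-wide level, which was 4.09 fragments in SW480 and 3.75 in HCT116. At that lowest level, within 1%, stood 1042 of the 2471 regions (42.2%, interval 40.2 to 44.1). Among SW480 peaks inside genes overlapping HCT116 the share was 14.1%, and at SW480 gene ends it was 5.64%. The 1182 SW480-alone peaks outside genes had a share of 43.5%, close to that of the set, while the HCT116-alone peaks inside genes had 19.1%. The median background was 4.32 fragments in the set, 7.78 in the overlapping peaks and 10.4 at gene ends. The part of the low background in the calls was not tested.

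**Figure D1:**
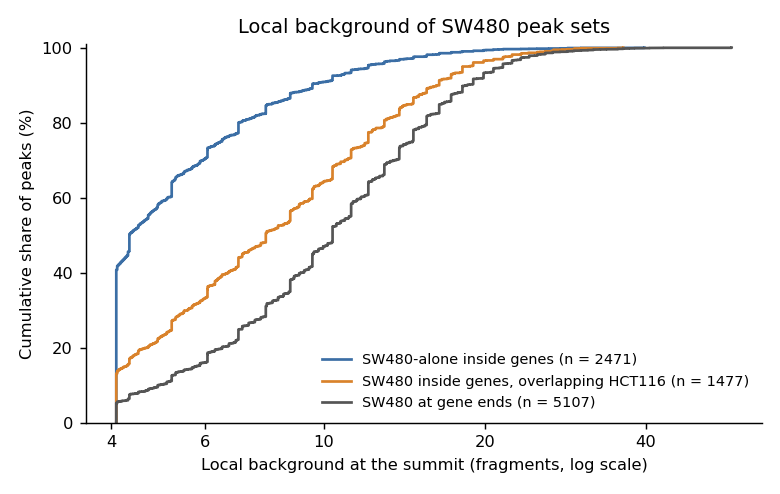
Cumulative share of peaks (percent, vertical axis) against recovered local background in fragments (horizontal axis, log scale) for 3 sets of SW480 peaks, 1 line per set. At the lowest background stand 42.2% of the SW480-alone peaks inside genes, 14.1% of the peaks overlapping HCT116 and 5.64% of gene-end peaks.

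The strongest regions sat in genes of diverse functions. The highest −log10 q, 48.7, belonged to a region in CARINH, a long noncoding RNA beside IRF1, at chr5:132458871-132460289 with fold 5.89 and 122 fragments over a background of 19.9. HS3ST3B1, a heparan sulfate sulfotransferase, followed with −log10 q 47.9, fold 8.09 and 91 fragments at chr17:14308837-14309404. That region had no other member within 100 kb. SUSD4, a complement-regulating membrane protein, had the highest fold of the set, 10.03, with 58 fragments over a background of 4.88 at chr1:223331631-223332101. The best placed of these, CARINH, ranked 71 in the whole SW480 list by −log10 q.

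TENM2, a teneurin adhesion receptor, and CNPY1, a canopy family protein linked to FGF signalling, came next with identical values: fold 9.63, −log10 q 29.8 and 48 fragments over the lowest background. The TENM2 region at chr5:167295175-167295809 was 635 bp wide and 1021736 bp from the nearest HCT116 region. Its summit lay 1045 bp from the nearest gene end, just past the 1 kb limit. The CNPY1 region at chr7:155505926-155509886 was 3961 bp wide. Both therefore reached their rank through the same fragment count over the floor, in regions of very different width. SMARCA2 was sixth with −log10 q 27.9.

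The remaining regions of the 12 with highest −log10 q ran from 23.6 down to 20.2. They lay in PRR5L, PLAC1, a placental membrane protein, ATXN7L1, an ataxin-7 relative with 2 of them, KDM2A, a histone H3 lysine 36 demethylase, and the noncoding LINC03063. Fold in these 6 regions ran from 5.88 in ATXN7L1 to 8.45 in PRR5L. The LINC03063 region was the one nearest to an HCT116 region, at 7910 bp. By fold alone, MYO3B, a class III myosin, with 7.47 and 37 fragments, and CDK15, a cyclin-dependent kinase, with 7.08 and 35 fragments, completed the leading 10, both over the lowest background.

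The widest regions did not coincide with the strongest throughout. The 5 widest were 4085 bp in PRR5L, 3961 bp in CNPY1, 3246 bp in PRR5L, 3054 bp in the noncoding SLC7A14-AS1 and 2996 bp in the noncoding PITX1-AS1. The PRR5L region of 4085 bp, chr11:36357295-36361379, had 28 fragments, and the neighbouring one of 3246 bp, chr11:36361720-36364965, had 42. They were separated by less than 1 kb. Of the wide regions, PRR5L and CNPY1 were over the lowest background, and those of SLC7A14-AS1 and PITX1-AS1 had 6.92 and 8.99.

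By the rule every HCT116 region was more than 5 kb away, and distances from other gene sequence were not computed for comparison. The median distance to the nearest HCT116 region was 85.2 kb (quartiles 32.4 and 250.1 kb). It exceeded 100 kb for 45.8% of the set and 500 kb for 13.7%. The median distance to the nearest gene end was 15.0 kb. Just inside the 5 kb limit stood regions in CRNKL1 at 5005 bp with fold 3.39 and in ZNF287 at 5020 bp with fold 2.95, and just outside it regions in GBA1LP at 4979 bp with fold 3.19 and in VAC14 at 4861 bp with fold 2.41. At the 1 kb limit, regions in ABCC9 and LOC105378977 lay 1002 bp from a gene end with fold 3.24 and 4.92, and those in KLK7 and THYN1 were left out at 1000 and 996 bp with fold 2.92 and 3.01.

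The set was spread unevenly over the chromosomes. Per Mb of sequence inside genes and more than 1 kb from gene ends, of which there were 1533 Mb, the genome held 1.61 regions. Chromosome 12 had 5.19 per Mb (388 regions), chromosome 7 had 4.75 (365) and chromosome 20 had 3.15 (99). Chromosome 2 followed with 2.44 per Mb and 325 regions. At the low end stood chromosome 4 with 0.374 per Mb (35 regions), chromosome 18 with 0.456 (17) and X with 0.504 (30). Chromosomes 12, 7 and 2 thus held 15.7%, 14.8% and 13.2% of all regions.

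The SW480-alone peaks outside genes were distributed over chromosomes in a similar order. Their density was 3.59 per Mb on chromosome 20, 3.12 on chromosome 7 and 2.61 on chromosome 12, beside 0.919 on all chromosomes together, and 0.217 on chromosome 4. Across the 23 chromosomes Pearson's r between the density inside and outside genes was 0.886 and Spearman's rank correlation 0.813. Without chromosomes 7 and 12 these were 0.868 and 0.760. The 2 densities come from the same library and the same HCT116 list, so this is a description. With the density of HCT116-alone peaks inside genes, r was −0.04 and the rank correlation −0.15. HCT116-alone peaks were densest on chromosome 19 at 9.11 per Mb, where the SW480 set had 0.565.

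**Figure D2:**
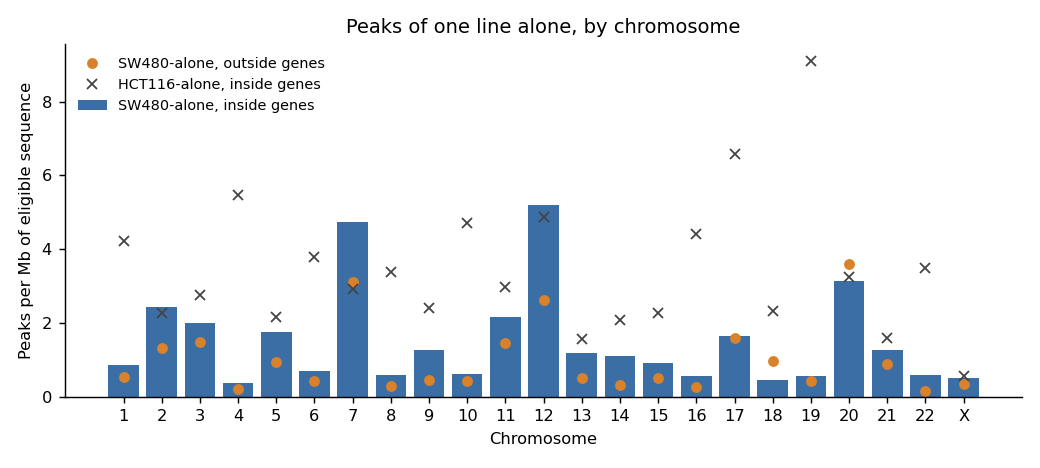
Peaks per Mb (vertical axis) on each chromosome (horizontal axis), with bars for the SW480-alone set and crosses for HCT116-alone peaks, both per Mb of eligible gene sequence, and dots for SW480-alone peaks outside genes, per Mb outside genes. Chromosomes 12 (5.19) and 7 (4.75) stand highest for the SW480-alone set, and chromosome 4 (0.374) lowest.

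Regions of the set often lay side by side. Another member was within 50 kb for 62.9% (interval 61.0 to 64.8), beside 40.01% of the SW480 peaks overlapping HCT116 and 64.6% of the HCT116-alone peaks. Chaining members with gaps of at most 100 kb gave 1151 chains, and 782 regions (31.6%) stood alone. Runs, here chains of 10 or more members, numbered 27 and held 647 regions, 26.2% of the set. The share in runs was 2.03% for SW480 peaks overlapping HCT116 and 20.8% for HCT116-alone peaks. In 18 of the 27 runs the HCT116 list had no peak between the first and last member, which in compact runs the 5 kb rule largely fixes. The sets differ in size, and larger sets have more neighbours, so these shares were not compared further.

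Chromosome 12 carried 6 runs with 289 regions. The longest run, over SOX5 and its neighbours, held 141 regions in 1327 kb, with 120 inside SOX5, a SOX family transcription factor, and the COG5 run on chromosome 7 held 56, with 48 inside COG5, a subunit of the Golgi tethering complex COG. Regions outside runs had a density of 1.32 per Mb on chromosome 12 and 3.20 on chromosome 7, beside 1.19 in the genome. Most of the density on chromosome 12 was therefore in its runs, and most of that on chromosome 7 was not.

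The other chromosome 12 runs lay within a few Mb of SOX5. ABCC9, the sulfonylurea receptor subunit of ATP-sensitive potassium channels, had 26 regions over 134.6 kb with fold 2.39 to 5.81, and no HCT116 peak inside. ITPR2, an inositol trisphosphate receptor that releases calcium, had 25 over 413.4 kb with fold 2.12 to 4.64, and 1 HCT116 peak inside. Both genes had summit pileups close to the set's median, 18.5 and 20.

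Other chromosomes had runs as well. AOPEP on chromosome 9, an aminopeptidase, had 27 regions over 267.5 kb with 14 to 34 fragments. PDE4D on chromosome 5, a cyclic AMP phosphodiesterase, had 23, of which 22 lay within 132 kb of a 1553 kb gene. RELN, which encodes the secreted protein reelin, and LHFPL3, a tetraspan membrane protein, both on chromosome 7, had 20 and 19 regions with folds of at most 4.33 and 3.95. All 4 genes had median folds between 3.23 and 3.54, so the number of regions and not their fold set these genes apart.

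Some runs were compact. Of the 10 genes with most regions, the densest runs were in MGAT5 and CEP112. MGAT5, the enzyme that adds branches to N-glycans, had 17 regions in 55.0 kb, and CEP112, a centrosomal protein, had 17 in 71.5 kb. In MGAT5 these took up 1 stretch of a 334.7 kb gene, and the median pileup was 25 fragments over a median background of 6.33, with none at the lowest level. In CEP112 the median was 19 fragments and 12 of the 17 were at the lowest level. PRR5L, with 15 regions in 67.4 kb, and CDK15, with 15 in 63.9 kb, were of the same kind and held some of the strongest regions of the set.

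**Figure D3:**
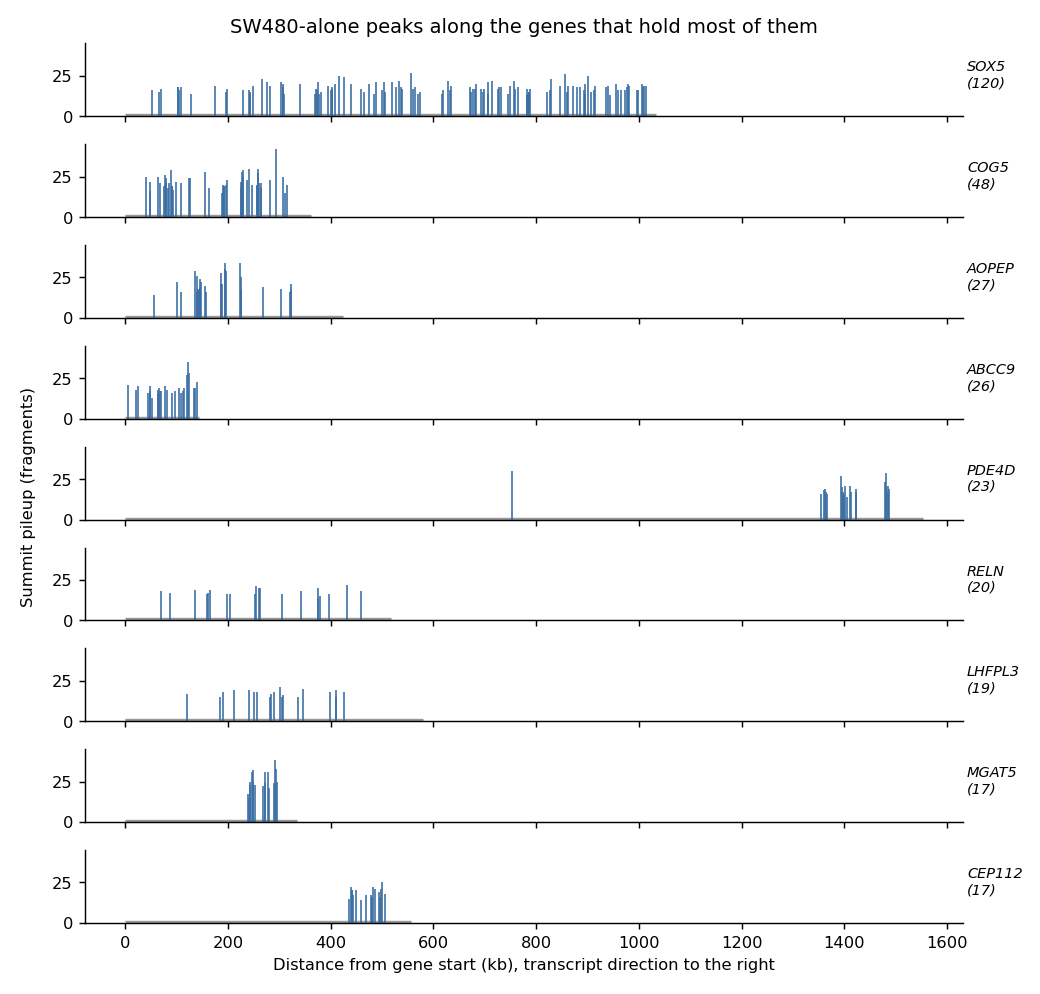
Summit pileup in fragments (vertical axis) against distance from the gene start in kb (horizontal axis) for each region inside 9 of the 10 protein-coding genes with most regions, 1 panel per gene with its number of regions; ITPR2 is not drawn because its strand is not in the table used. Regions spread along SOX5, COG5 and RELN, and gather in 1 stretch in MGAT5, CEP112 and, except for 1 region, PDE4D.

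Regions in runs and outside them had similar signal. The median fold was 3.54 in runs and 3.34 outside, the median −log10 q was 3.46 and 3.37, and the median pileup was 19 and 20 fragments. The lowest background applied to 50.7% of regions in runs and 39.1% of the others. The highest −log10 q was 23.6 in runs and 48.7 outside. In the 60.5 kb run over the immunoglobulin kappa locus on chromosome 2 all 13 regions were at the lowest background. That locus was singled out after its values were seen.

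The host genes were long. A member lay inside 935 of 18625 protein-coding genes over 2 kb, a background of 5.02% for all gene counts below. Among the 3322 coding genes of at least 100 kb, 538 held one, 16.2%. The median length of host genes was 122.4 kb, beside 27.3 kb for all coding genes over 2 kb. The share of hosts was larger in longer genes, from 0.182% at 2 to 10 kb, 1.35% at 10 to 30 kb and 5.79% at 30 to 100 kb to 13.6% at 100 to 300 kb. It reached 23.9% at 300 kb to 1 Mb and 33.8% above 1 Mb, where 23 of 68 genes held a region. A single region was found in 612 host genes, 2 in 154 and 3 or more in 169.

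Long genes also offer more sequence. Genes of at least 100 kb held 67.95% of the set (interval 66.1 to 69.8) and 65.0% of the eligible sequence, which are close shares. The eligible sequence here still counts the stretches within 5 kb of HCT116 regions, where the rule allows no member. The SW480 peaks overlapping HCT116 had 36.4% in such genes, and the HCT116-alone peaks 46.9%. Protein-coding genes held 80.9% of the set and 76.5% of the eligible sequence. Coding genes over 1 Mb with an HCT116-alone peak made up 13.2%, below the 26.8% of the class from 300 kb to 1 Mb, while the SW480 set had its highest share there. The runs contributed to the share in long genes, which was 62.2% without them.

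**Figure D4:**
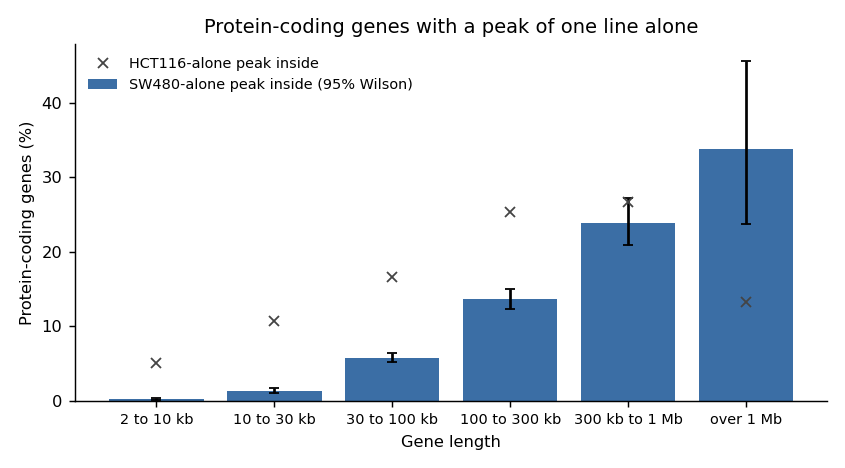
Percent of protein-coding genes holding at least 1 region (vertical axis) in 6 classes of gene length (horizontal axis), with bars for the SW480-alone set (95% Wilson intervals) and crosses for HCT116-alone peaks. The SW480-alone share climbs from 0.182% to 33.8%, and the HCT116-alone share falls to 13.2% in the class over 1 Mb.

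Within long genes the regions were spread evenly as a pool, with genes of many regions weighing most. Of 1230 regions in 443 stranded host genes of at least 100 kb, 5 equal parts of the gene, counted from its start, held 18.7%, 20.9%, 21.1%, 20.9% and 18.5%. The strongest region of each gene lay in parts 1 to 5 for 24.2%, 21.4%, 20.1%, 19.6% and 14.7% of these genes. Counted per gene, it was thus more often in part 1 than in part 5 (107 and 65 genes). Each part of such a gene is many kb long, so part 1 is not the start itself. The 1 kb left out at each gene end is a small part of such genes.

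Peaks at the ends of the host genes were not among the members, but the rule bars HCT116 regions near a member, so the shares below are partly tied to it and are descriptions. A SW480 peak stood within 1 kb of an end in 269 of the 935 hosts (28.8%, interval 26.0 to 31.7), beside 22.7% of the other coding genes. An HCT116 peak did so in 41.9% of hosts and 46.0% of the others. An end peak in SW480 with none in HCT116 was found in 6.31% of hosts (59 genes) and 1.61% of the others (285). Where strand was known, 97.5% of hosts with a SW480 end peak had it at the start, beside 97% of other coding genes with one. Neither line had an end peak in 51.8% of hosts and 52.4% of other genes.

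Gene length bears on these shares and was split into classes. From 30 to 100 kb, 39.7% of hosts and 26.9% of other genes had a SW480 end peak, and from 100 to 300 kb, 26.4% and 21.0%. Between 300 kb and 1 Mb the shares were 13.3% and 12.9%, and over 1 Mb, with 23 hosts, 13.04% and 2.22%. From 10 to 30 kb they were 31.1% and 24.01%. The size of the difference thus varied between classes without an order. An HCT116 end peak was in 49.2% of hosts and 52.4% of others from 30 to 100 kb, and in 43.0% and 44.3% from 100 to 300 kb. Hosts had the larger share in the longer classes, with 32.5% and 28.0% from 300 kb to 1 Mb and 17.4% and 6.67% over 1 Mb. An HCT116 peak was inside 33.6% of hosts and 21.1% of other genes, a comparison that was not split by length. An HCT116-alone peak was inside 194 hosts (20.7%), beside 13.7% of all coding genes and 25.4% of those from 100 to 300 kb.

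Few of the regions lay at internal starts, yet more than the sequence there would hold. A summit was within 1 kb of an internal start for 65 regions, 2.63% of the set (interval 2.07 to 3.34), while 0.567% of the eligible sequence was that close. The share was 22.7% among SW480 peaks overlapping HCT116 and 7.70% among HCT116-alone peaks. Of the 100 members with highest −log10 q, 7 were at an internal start, beside 40 of the 100 strongest overlapping peaks. In runs the share was 0.618% (4 of 647), and outside runs 3.34%. Of the 65 summits, 32 lay downstream of the start and the rest upstream or on it.

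**Figure D5:**
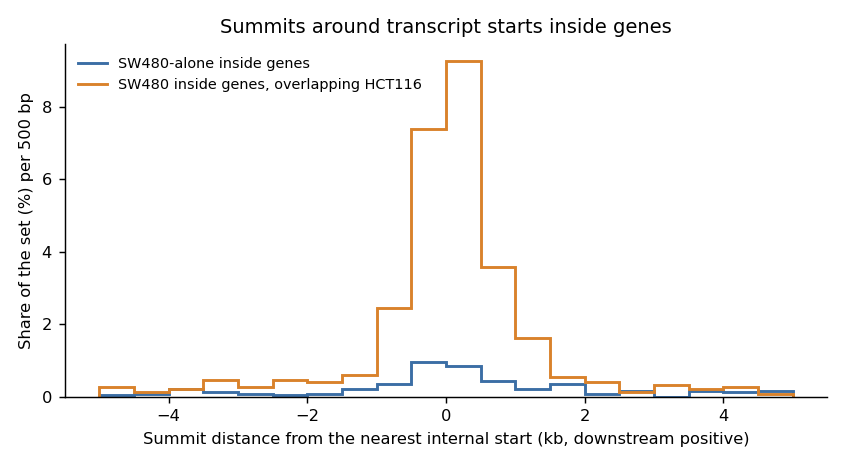
Share of each set in percent per bin of 500 bp (vertical axis) against the distance of the summit from the nearest internal start in kb, downstream positive (horizontal axis), for the SW480-alone set and the SW480 peaks overlapping HCT116. Within 500 bp lie 1.82% of the SW480-alone set and 16.7% of the overlapping peaks.

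Windows of 250 bases upstream of internal starts were searched for short motifs on both strands. In all, 36 regions overlapped 41 windows of 34 genes, where each window also took in a short stretch downstream of the start. A region could thus count without reaching the searched bases, as in SLC7A7. The AP-1 site, TGANTCA, was in 6 of the 41 (14.6%, interval 6.88 to 28.4), beside 6.55% of all 34789 RefSeq promoter windows and 8.21% of the 5224 internal ones. The E-box CACGTG was in 7 (17.1%, interval 8.53 to 31.3), beside 6.33% and 4.98%. The GATA site AGATAA was in 9 (21.95%), beside 9.20% and 11.2%. The GC box GGGCGG was in 14 (34.1%), beside 42.6% and 32.0%. The windows of a gene can overlap, 11 motifs were searched, and the choice of windows used the peak calls, so these shares are descriptions.

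The shares of the other motifs follow in the same order. TGTGGT, the RUNX core, and GGAATG, the TEAD core, were each in 6 of the 41 windows (14.6%), beside 10.99% and 11.9% of all windows and 11.9% and 12.7% of internal ones. CCGGAAG, an ETS site, was in 5 (12.2%, interval 5.32 to 25.5), beside 8.48% and 4.15%, and CTTTGAT, a TCF/LEF core, in 2 (4.88%), beside 2.28% and 2.41%. No window held TGTTTAC, a forkhead site, TGACGTCA, the cAMP response element, or an NRF1 site, beside 2.98%, 1.64% and 5.05% of all windows and 3.73%, 0.861% and 2.09% of internal ones. None of the motifs contains another. Median G and C content was 50% in the 41 windows, 53.6% in internal and 58% in all windows. A match is a stretch of letters and does not show that a factor binds there.

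Gene lists chosen for colorectal cells are described by their counts against the 5.02% of all coding genes, and against 16.2% for members of at least 100 kb. The large genes of common fragile sites, which replicate late and break under replication stress, stood highest, with 15 of 38 (39.5%). Their median length was 1193 kb, and all coding genes over 1 Mb had 33.8%. PDE4D led them with −log10 q 11.8, followed by RORA, a nuclear receptor, at 7.21 with 3 regions, and PTPRN2, a receptor phosphatase, at 6.04 with 2. The summit of the leading PDE4D region lay 1046 bp from the nearest gene end. An HCT116-alone peak was inside 5 of the 38 (13.2%), close to the 13.7% of all coding genes and the 13.2% of those over 1 Mb. Genes over 1 Mb include members of this list such as PDE4D, so its share and the 33.8% are not separate. Listed hosts below 1 Mb, such as RORA at 741 kb, belong to the length class with 23.9%. The share among unlisted genes of matched length was not computed.

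Among transcription factors of the intestinal epithelium and related families, 10 of 52 held a region (19.2%), and 6 of 23 of at least 100 kb (26.1%). RUNX2, a RUNX family factor, had 6 regions, the strongest at chr6:45430462-45432198 with fold 6.95, −log10 q 17.1 and 36 fragments. VDR, the vitamin D receptor, had 1 at chr12:47882943-47883213 with fold 3.39 and 61 fragments, and an HCT116 peak at an end of the gene. ETV6, an ETS family repressor, had 7 regions with 21 to 38 fragments, and a peak at its start in both lines, with fold 4.32 in SW480 and 9.44 in HCT116. RUNX2 had 3 HCT116 peaks inside, and VDR and ETV6 had none. These 3 genes differed in background as well as in number of regions, since VDR had many fragments at modest fold.

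Regulators of chromatin had 10 of 75 (13.3%). SMARCA2 had 2 regions, KDM2A had 3 with 19 to 43 fragments, and ARID2, a subunit of the PBAF remodelling complex, had 2 with fold up to 4.79. Of the 37 list members of at least 100 kb, 6 held a region (16.2%), the same share as among all coding genes of that size. Of the 18 TIP60/NuA4 subunits, ACTL6A, an actin-related protein that SWI/SNF complexes share, held 1 region with fold 3.15 and 15 fragments.

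Many genes of cell adhesion are long. Cell junction genes had 10 of 49 (20.4%) and 9 of 32 of at least 100 kb (28.1%). They were led by PKP4, a plakophilin of junctions, with fold 4.52, CLDN1, a tight junction claudin, with 3.95, and CDH13, a cadherin held to the membrane by a lipid anchor, with 3.30. Integrin and matrix genes had 7 of 55 (12.7%), and 4 of 29 of at least 100 kb (13.8%), with COL4A2, a basement membrane collagen, highest at −log10 q 16.8 and 51 fragments, then ITGB5, an integrin chain, with 10.2 and LAMA3, a laminin chain, also with 10.2. The COL4A2 summit lay 1080 bp from the nearest gene end. The cell junction and the integrin and matrix list had HCT116-alone peaks in more of their genes, 16 (32.65%) and 19 (34.55%). Such peaks were in 13.7% of all coding genes, and in 25.4% of those from 100 to 300 kb.

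Wnt, receptor tyrosine kinase and TGF-beta lists had lower shares of all their genes than the adhesion lists. The Wnt share was close to the 12.7% of integrin and matrix genes. Among genes of at least 100 kb, 6 of 24 Wnt genes held a region (25%). For receptor tyrosine kinases it was 4 of 23 (17.4%), and for TGF-beta and BMP genes 3 of 14 (21.4%). All coding genes of that size had 16.2%, cell junction genes 28.1%, and integrin and matrix genes 13.8%. Wnt pathway genes had 7 of 58 (12.1%), with ROR1, a receptor for Wnt5a, at fold 3.93, TCF7L2, the main TCF factor of the colon, with 4 regions of fold 2.53 to 3.71, and ZNRF3, a ligase that removes Wnt receptors, with 2. HCT116 peaks inside numbered 7 in TCF7L2 and 6 in ZNRF3, with none in ROR1. Receptor tyrosine kinases had 6 of 51 (11.8%). EGFR held 1 region with fold 4.29 and 36 fragments, IGF1R had 6 with fold 3.12 to 4.52, and ALK had 7 with 2.55 to 4.25. EGFR also had 5 HCT116 peaks inside, IGF1R had 1 and ALK none. TGF-beta and BMP genes had 4 of 40, led by SMURF1, a ubiquitin ligase of the pathway, with fold 3.38, TGFBR3, a co-receptor, with 4.13 and ACVR1, a BMP receptor, with 3.94.

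Hippo pathway genes had 5 of 31 (16.1%), and 4 of 16 of at least 100 kb (25%). LIMD1, an inhibitor of the LATS kinases, had fold 3.88 with 50 fragments 1144 bp from a gene end. VGLL4, a TEAD-binding repressor, had fold 4.17 with its summit 187 bp from an internal start, and PTPN14, a phosphatase that holds YAP back, had 4 regions of up to 4.92. VGLL4 also had 4 HCT116 peaks inside and PTPN14 had 3, with none in LIMD1. Among drivers of colorectal cancer, 3 of 38 (7.89%) held a region: ARID1A, a SWI/SNF subunit, with fold 3.76, PTPRT, a receptor phosphatase, with 3.74, and TCF7L2. This share was the lowest but one, after the TIP60/NuA4 subunits with 5.56%, and drivers of at least 100 kb had 2 of 14 (14.3%). HCT116 peaks inside numbered 3 in ARID1A, with none in PTPRT.

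Ion channel and axon guidance lists were included because many of their genes are long. Ion channels had 9 of 66 (13.6%), and 16.1% of those of at least 100 kb. KCNMA1, a calcium-activated potassium channel, had 6 regions with fold up to 5.05, ITPR2 had 25, and ITPR1, its relative, had 1 with 4.33. Axon guidance genes had 4 of 44 (9.09%), with DSCAM, an adhesion receptor, at fold 5.31, SLIT3, a secreted guidance cue, at 4.02 and EFNA5, an ephrin, at 4.33. These shares were no higher than that of all coding genes of at least 100 kb.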

How the data were processed

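BRD8 ChIP-seq lists of HCT116 and SW480, 1 ChIP library per line, were used. The authors used Trimmomatic 0.33, Bowtie2 2.4.1, MACS2 and deepTools with GRCh38, per the submitters' processing notes. The versions noted for MACS2 and deepTools are not used here, and how duplicate reads were treated is not given in the sources used here. Among the values, the deposited fold is a ratio of ChIP signal to local background. Each summit also has a deposited −log10 of its p-value and of its q-value, and the lists stop at a q of 0.05. The deposited score was not used. The deposited summit offset gave 1-based summit positions. The lists give no read totals, and values were ranked within a list.

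Pileup and background were solved from the authors' fold and p-value by scanning up to 2999 fragments (relative tolerance 0.0001), which succeeded for 99.977% of SW480 and 99.991% of HCT116 peaks. The solver was tested on simulated data. Distances to HCT116 were taken from region edge to region edge. Genes and promoter windows came from RefSeq tables of GRCh38.p14. A summit inside several genes is described by the shortest protein-coding one. Shares have 95% Wilson intervals (statsmodels 0.14.6, Python 3.11.15, pandas 2.3.3). No test was made, because the regions were chosen from these calls and each line has 1 library.

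The members, gene lists and alternatives were chosen with earlier results of these data known. Genes are named by rule: the 12 regions of highest −log10 q, the 10 of highest fold, the 5 widest, those beside each limit, the 10 coding genes with most regions, and up to 3 per list by −log10 q. A further list is not reported. Member sequences and the inputs' own signal were not analysed here.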

Additional observations from a re-analysis of the deposited data

How the results depend on the processing

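Of 60 recomputed values, 41 stayed within the tolerance and 19 moved. A count was allowed to change by up to 1.5 times, so 1816 to 3228 regions and 697 to 1324 coding hosts pass, while a share or median had to stay within its own 95% interval. With −log10 q of at least 2 the median −log10 q was 3.90, with at least 5 it was 6.515, and with nearby members merged into loci it was 3.77; a stricter limit raises this median by construction. The set fell to 639 regions with −log10 q of at least 5 and to 1576 loci after merging, and coding hosts fell to 349 with −log10 q of at least 5. The share of hosts with a SW480 end peak was 14.9% with −log10 q of at least 5, 34.3% when overlap alone was barred, and 25.2% with 20 kb free of HCT116 regions. The share of the set in genes of at least 100 kb was 63.4% with overlap alone barred, 72.8% with 20 kb free, 74.7% with 5 kb from gene ends, 73.2% with protein-coding genes alone, 63.7% after merging, and 71.6% with background at most 1.5 times the lowest. The share with a neighbour within 50 kb was 46.6% with −log10 q of at least 5 and 27.3% after merging. Leaving out the runs, an alternative chosen after seeing the data, gave 62.2% in genes of at least 100 kb and 50.3% with a neighbour. Apart from thresholds and merging, the causes were not tested. No paired analysis was possible because each line has 1 ChIP library. Summits of 13 to 20 fragments limit every weak region.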

Other observations

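The regions left out by position had a higher SW480-alone share than the rest. In chromosome 7 from 76 to 96 Mb and the left-out 5 Mb of chromosome 8 together, 543 of 646 SW480 peaks inside genes had no HCT116 region within 5 kb, 84.1% (interval 81.0 to 86.7), beside 52.5% elsewhere. Outside genes, the 1182 SW480-alone peaks had a median fold of 3.36, a median of 20 fragments and a median width of 322.5 bp, close to the 3.34, 20 and 321 bp inside genes. Their highest fold was 39.2, against 10.03 inside genes.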
